A study of Arabidopsis thaliana with 4 samples.

Results

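Genes that make cuticle wax and cutin were followed in leaf explants of Arabidopsis thaliana during callus induction. The 10 genes CER1, CYP86A4, CER3, CER4, MAH1, WSD1, GPAT4, GPAT6, DCR and CYP77A6 were chosen by locus identifier for their place in the pathway. They were in part selected on the deposited folds, since CER1 and CYP86A4 were known to be listed as increased. Of the 10 genes, 5 were present among the 2773 loci of the 4 deposited tables, namely CER1, CER4, MAH1, CYP86A4 and DCR. CER3, WSD1, GPAT4, GPAT6 and CYP77A6 were in none of the tables, and their levels were not analysed here.

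The plants were Col-0 wild type or carried lbd16-2, an allele of the auxin-induced LOB-domain transcription factor gene LBD16, and no transgene or further allele is named. The first leaf pair of 12-day-old plants was sampled whole at day 0, or as explants with their callus following 4 days of darkness on callus inducing medium. Each of the 4 groups had a single library, so no difference has a replicate check, and parentheses hold 95% counting intervals that compare libraries and not conditions. The tables list genes over 8-fold higher at day 4 in wild type, in lbd16-2, in both or in wild type alone, so genes of mature leaves that did not increase are outside them and the tissue label could not be checked. LBD16 itself was in both lists, at 981 normalised reads for wild type and 518 for lbd16-2 after 4 days, which does not check the label, and every direction for lbd16-2 rests on it.

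The plant cuticle is a lipid layer made by the epidermis of the shoot, and consists of a cutin polyester with waxes in and on it. Waxes derive from very-long-chain fatty acids. CER1 and CER3 together form alkanes, MAH1 oxidises alkanes to secondary alcohols and ketones, CER4 reduces fatty acyl groups to primary alcohols, and WSD1 joins alcohols and acids into wax esters. Cutin is built from oxidised fatty acids, to which cytochromes P450 such as CYP86A4 and CYP77A6 add hydroxyl groups. GPAT4 and GPAT6 attach the acids to glycerol, and DCR, an acyltransferase of the BAHD family, is needed for cutin to form. Suberin, the related polyester of root endodermis and of wounds, is made by other members of the same enzyme families.

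The 250 bases before the annotated starts of CER1 and DCR are shown because these members passed the limit in wild type but not in lbd16-2. Both were read 5′ to 3′ on the gene's own strand from the RefSeq genome TAIR10.1. The tables give no coordinates, and the labels name TAIR10. The CER1 window is chr1:418166-418415 on the plus strand and the DCR window is chr5:8079867-8080116 on the minus strand, with no other annotated gene in either. Capitals mark a match to TAAATGNA, a looser form of the L1 box known from promoters of epidermal genes, which has C or T in place of N.
CER1: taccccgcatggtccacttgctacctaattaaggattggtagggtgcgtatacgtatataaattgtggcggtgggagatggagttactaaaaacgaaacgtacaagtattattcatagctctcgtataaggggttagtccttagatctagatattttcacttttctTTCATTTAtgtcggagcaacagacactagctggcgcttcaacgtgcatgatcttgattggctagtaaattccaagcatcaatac
DCR: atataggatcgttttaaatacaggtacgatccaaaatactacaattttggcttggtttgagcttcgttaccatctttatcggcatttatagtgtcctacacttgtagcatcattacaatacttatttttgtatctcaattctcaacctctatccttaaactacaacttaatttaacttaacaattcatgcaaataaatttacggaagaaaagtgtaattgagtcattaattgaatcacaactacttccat

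The match in the CER1 window lay on the opposite strand and began 84 bases before the annotated start. On either strand, TAAATGNA was in 2 of the 10 windows, those of CER1 and WSD1, and in 9.90% of the 27431 windows of this length before annotated genes. The GCC box GCCGCC and the LBD-type motif GCGGCG, whose matches overlapped, were in the GPAT6 window and in 1.87% and 1.56% of all windows. The auxin response element TGTCTC was in 0 of the 10 windows and in 10.9% of all windows. The L1 box itself, TAAATGCA or TAAATGTA, was in 0 of the 10 windows and in 4.49% of all windows. These matches describe letters in the windows and not bound sites.

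The wild-type list held all 5 genes, and 8.91% of the 24442 genes tested there. In lbd16-2, 3 of the 10 were listed, beside 9.18% of 24518 tested. CER4, MAH1 and CYP86A4 were in both lists, which hold 6.78% of the genes tested in wild type, and CER1 and DCR were in the wild-type list alone, which holds 2.14%. The choice of the genes used these lists, so nothing is read from the counts. Nearest to the limit of 3 on the deposited log2 scale were DCR, at 3.36 in wild type and 2.43 in lbd16-2, and CYP86A4, at 3.19 in lbd16-2. Levels below are normalised reads, a gene's reads divided by the size factor of its library, which ranged from 1.08 for lbd16-2 day 0 to 1.68 for lbd16-2 day 4. In these bulk samples more cells of a type and more RNA per cell cannot be told apart.

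**Figure D1:**
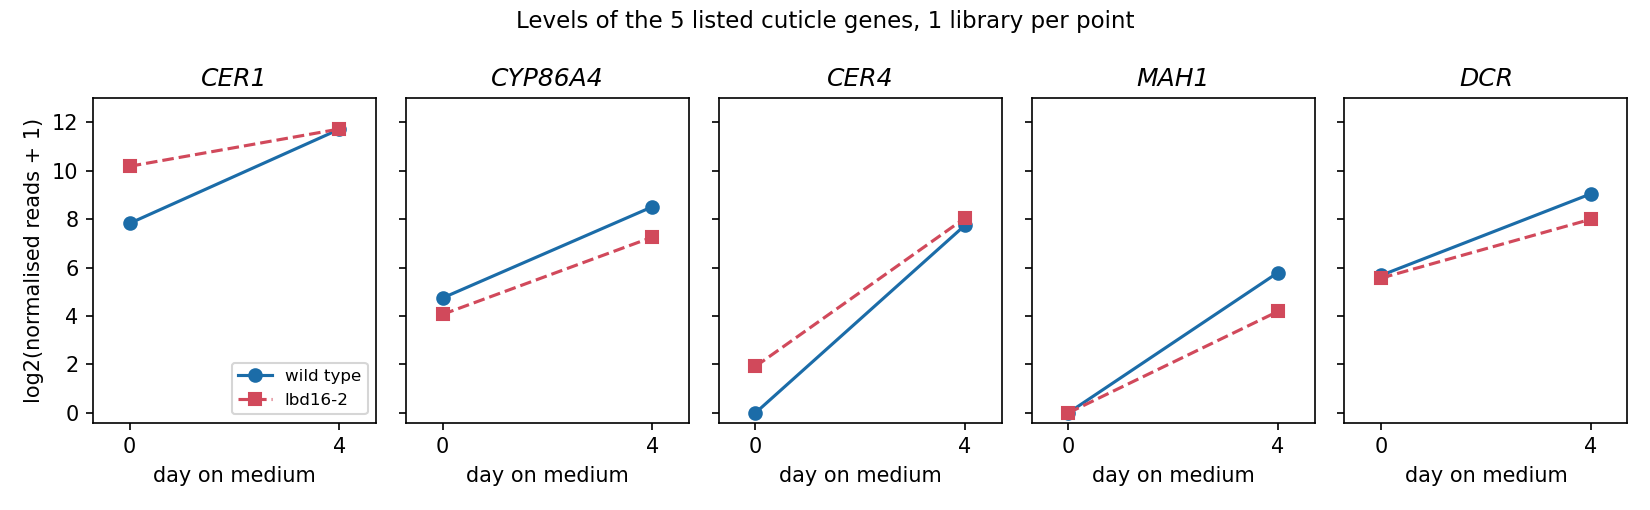
Level of each listed gene, as log2(normalised reads + 1), at day 0 and day 4 in wild type (circles, solid line) and lbd16-2 (squares, dashed line), with 1 library per point. CER1 starts higher in lbd16-2 and ends at about the wild-type level, while CYP86A4, MAH1 and DCR end lower in lbd16-2.

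Among the wax genes, CER1 (AT1G02205) stood highest. In wild type it had 226 normalised reads before culture and 3350 after 4 days, and in lbd16-2 it had 1160 and 3373. The lbd16-2 leaves thus started well above the wild-type leaves, while the day 4 libraries stood at nearly the same level. The fold between the days was 14.8 in wild type (13.2 to 16.6) and 2.91 in lbd16-2 (2.73 to 3.09). The lbd16-2 level was 5.13 times the wild-type level at day 0 (4.54 to 5.82) and 1.01 times at day 4 (0.969 to 1.05). The smaller lbd16-2 fold that kept CER1 out of that list therefore lay in its day 0 level.

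Other listed genes give a scale for this day 0 difference. There were 558 listed genes with all 4 values and a day 0 mean of at least 20 normalised reads, CER1, CYP86A4 and DCR among them. All 558 are in the wild-type list, since genes of the lbd16-2 list alone have no wild-type values here. Membership of the wild-type list favours a low wild-type level at day 0, so the shares and rank below describe a selected set. Of the 558, 27.1% were at least 2-fold higher in lbd16-2 at day 0, 6.09% at least 4-fold higher and 5.56% at least 2-fold lower. CER1, the 1 of the 3 members past the first of these limits, ranked 24 by this ratio. The lbd16-2 day 0 library lay 0.47 above wild type on the log2 scale over the 376 of these genes in both lists, and relative to that offset CER1 was at 3.71 times wild type (3.28 to 4.21). Among the 182 in the wild-type list alone, 46 (25.3%) shared the CER1 pattern of a day 0 level at least 2-fold higher in lbd16-2 with day 4 levels within 1.5-fold. That list by its making favours genes with a higher lbd16-2 level at day 0.

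CER4 (AT4G33790), the reductase of primary alcohol synthesis, had 0 reads in wild-type leaves and 3 reads in lbd16-2 leaves at day 0. By day 4 it stood at 214 normalised reads in the wild-type library and 263 in the lbd16-2 library. Both genotypes thus went from the detection floor to similar levels, with lbd16-2 at 1.23 times wild type (1.06 to 1.43). Against a floor of 3 reads in the day 0 library, which is 2.09 normalised reads, CER4 was at least 102-fold higher at day 4 in wild type. In lbd16-2 the fold was 94.6 (32.2 to 461).

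MAH1 (AT1G57750), the alkane hydroxylase that acts on the product of CER1, was the lowest of the 5 at day 4. Its reads numbered 0 at day 0 in both genotypes, and its day 4 level was 54.5 normalised reads for wild type but 17.2 for lbd16-2, from 77 and 29 reads. The lbd16-2 level was 0.316 times the wild-type level (0.199 to 0.491), although CER1 was at 1.01 times. Against the floor, which is 2.78 normalised reads for lbd16-2 at day 0, MAH1 was at least 26.0-fold higher at day 4 in wild type and at least 6.20-fold higher in lbd16-2. The lbd16-2 bound is under 8-fold, and MAH1 is in that list on the deposited log2 scale, which adds 1 to each normalised value. With 5 added its lbd16-2 log2 fold was 2.15, under the limit of 3.

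Among the cutin genes, DCR (AT5G23940) had 50.2 normalised reads in wild-type leaves and 46.4 in lbd16-2 leaves at day 0, a ratio of 0.923 (0.630 to 1.34). After 4 days the wild-type explants had 526 and the lbd16-2 explants 254, a ratio of 0.482 (0.427 to 0.544). The day 0 interval included 1, but relative to the day 0 offset of shared genes the ratio was 0.668 (0.456 to 0.971), which did not. The latter interval takes the offset as exact. The contrast between the days thus depends on that scaling. The fold was 10.5 in wild type (8.22 to 13.5) and 5.47 in lbd16-2 (4.08 to 7.49). At day 4 DCR was lower in lbd16-2 while CER1 was level between the genotypes.

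CYP86A4 (AT1G01600), a fatty acid hydroxylase of the CYP86A subfamily, had 25.8 normalised reads in wild-type leaves and 15.8 in lbd16-2 leaves at day 0, and 363 and 152 after 4 days. Its lbd16-2 level was 0.418 times the wild-type level at day 4 (0.358 to 0.486), close to the value of DCR, while the day 0 ratio of 0.611 (0.323 to 1.11) had an interval that included 1. Relative to the day 0 offset that ratio was 0.442 (0.233 to 0.804), near the day 4 value. The fold was 14.1 in wild type (10.07 to 20.2) and 9.61 in lbd16-2 (5.89 to 16.8), with overlapping intervals. With a pseudocount of 5 in place of 1 the lbd16-2 log2 fold was 2.91, under the limit of 3. GPAT4, the next coding gene to CYP86A4 in the annotation, was in neither list. The exons of CYP86A4 share an exact run of at least 50 bases with CYP86A2, another cutin hydroxylase gene, at 82.7% identity over 1224 bases, so its reads are in part uncertain. The exons of CER1, CER4, MAH1 and DCR had no such run elsewhere.

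**Figure D2:**
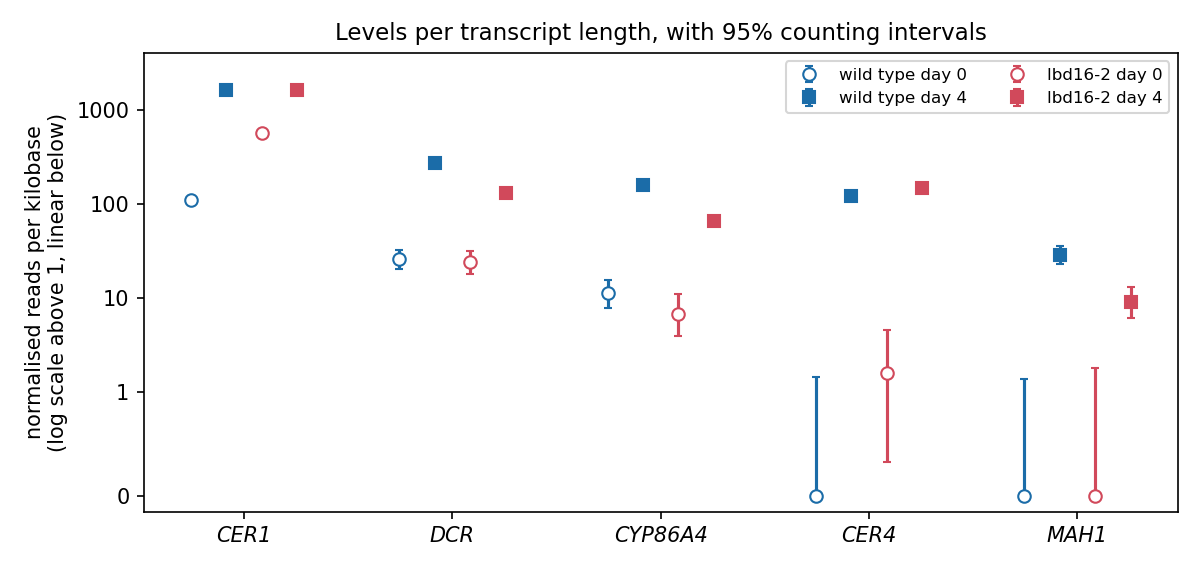
Normalised reads per kilobase of transcript for the 5 listed genes in the 4 libraries (open circles day 0, filled squares day 4, blue wild type, red lbd16-2), with 95% Poisson counting intervals, on an axis that is logarithmic above 1 and linear below. CER1 is highest in every library, and CER4 lies above DCR and CYP86A4 in lbd16-2 at day 4 but below both in wild type.

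Levels per kilobase of transcript placed the genes in a different order in the genotypes at day 4. In wild type CER1 had 1621 normalised reads per kilobase, followed by DCR with 270.2 (251 to 290.4), CYP86A4 with 156 (143 to 170.4), CER4 with 121 (108 to 135) and MAH1 with 28.7 (22.7 to 35.9), and no neighbouring intervals overlapped. In lbd16-2 CER1 had 1632, followed by CER4 with 148 (135 to 163), DCR with 130.3 (118 to 143), CYP86A4 with 65.3 (57.5 to 73.8) and MAH1 with 9.08 (6.08 to 13.05), and the intervals of CER4 and DCR overlapped. The alkane-forming enzyme gene was thus far above the others in both genotypes. At day 0 CER1, DCR and CYP86A4 followed in that order in both, at 109, 25.8 and 11.1 normalised reads per kilobase in wild type and 561, 23.8 and 6.79 in lbd16-2.

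The deposited log2 fold was larger in wild type for all 5 genes, as for 67.6% of the 2175 genes with all 4 values. It was larger by at least 1 for CER1, CER4 and MAH1, as for 36.7% of those genes, but CER4, at 1.62, was at 0.35 with a pseudocount of 5. Computed with 0.5 added to each read count, the wild-type log2 fold exceeded the lbd16-2 one by 2.35 for CER1 (2.16 to 2.53) and by 0.94 for DCR (0.39 to 1.49). Relative to the offsets of shared genes on each day these differences were 1.87 (1.68 to 2.05) and 0.46 (-0.08 to 1.01), the latter with an interval that included 0. For CYP86A4 the difference of 0.57 had an interval that included 0 (-0.28 to 1.42). For CER4 (-1.36 to 7.20) and MAH1 (-3.63 to 7.74) a difference was not detectable at this depth. At day 4, 3 of the 5 genes (CYP86A4, MAH1 and DCR) were at least 2-fold lower in lbd16-2 and 0 were at least 2-fold higher, beside 20.9% and 12.2% of the 1872 listed genes with a day 4 mean of at least 20. Membership of the wild-type list favours lower lbd16-2 values at day 4, and a larger wild-type fold, so nothing is read from the counts of 5 and 3 or from the direction of the fold differences.

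**Figure D3:**
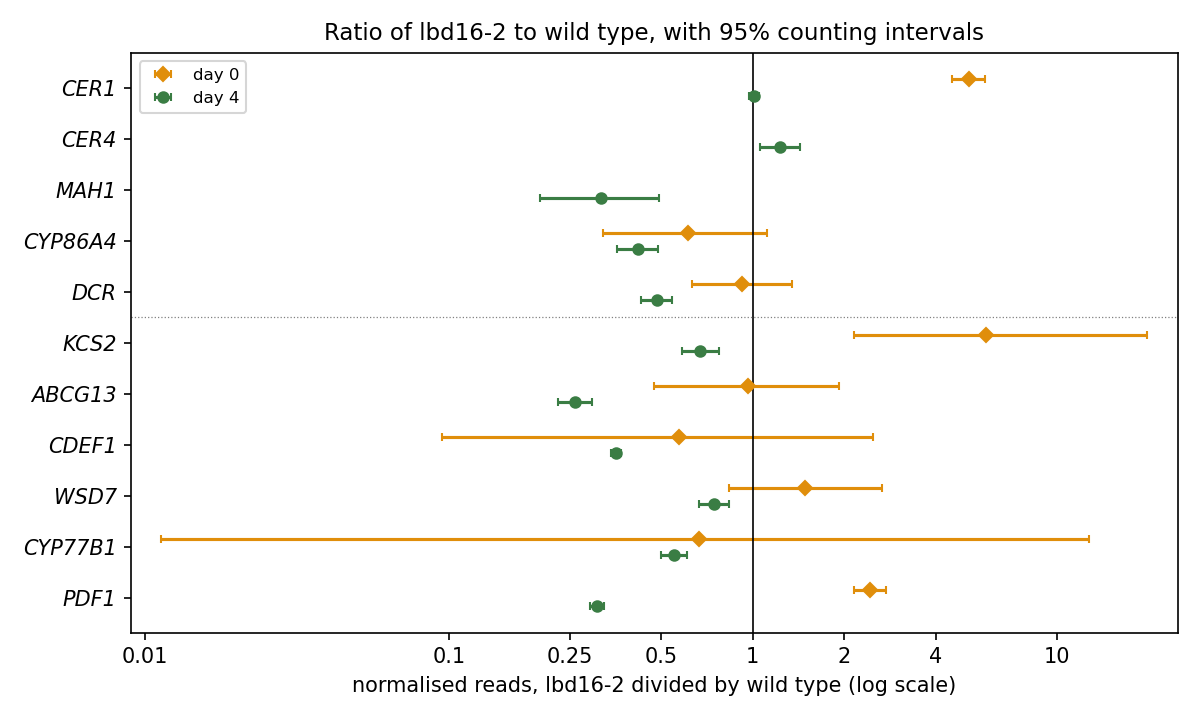
Normalised reads in lbd16-2 divided by wild type at day 0 (diamonds) and day 4 (circles), on a log axis, with 95% exact binomial counting intervals, for the 5 genes above the dotted line and for pathway, family and epidermis genes below it. CER4 and MAH1 have no day 0 point because wild type had 0 reads. CER1, KCS2 and PDF1 have day 0 intervals above 1, and every gene drawn except CER1 and CER4 lies below 1 at day 4.

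The authors' deposited table gave an FDR under 0.05 to 0 of the 5 genes in either genotype, with values from 0.155 to 0.690 for wild type and from 0.345 to 1 for lbd16-2. Unadjusted p-values in the authors' deposited table were under 0.05 for CER1 and CER4 in wild type and for CER4 in lbd16-2. The way these p-values were made from single libraries is not stated in the sources used here.

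Other genes of the pathway were looked up in the same tables. Of 22 further wax genes 1 was listed, of 13 further cutin genes 2, and of 13 regulators 0. These 3 of 48 genes were in both lists, beside 6.78% of genes tested, and nothing is read from the count. The wax gene was KCS2 (AT1G04220), an enzyme of fatty acid elongation that also serves suberin. It had 3.49 normalised reads in wild-type leaves and 20.4 in lbd16-2 leaves at day 0, a ratio of 5.85 (2.16 to 19.8) that rests on 5 and 22 reads. After 4 days it had 316 and 212, a ratio of 0.673 (0.583 to 0.775). The SHINE factor genes WIN1, SHN2 and SHN3 and the MYB factor genes MYB16, MYB30, MYB94, MYB96 and MYB106, which promote wax or cutin synthesis, were in none of the tables. The same holds for ABCG11, ABCG12 and ABCG32, exporters of cuticle lipids, and for LACS1 and LACS2, which activate fatty acids.

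The listed cutin genes encode an exporter and a cutin-degrading enzyme. ABCG13 (AT1G51460), an ABC transporter needed for flower cutin, had 15.3 normalised reads in wild-type leaves and 14.8 in lbd16-2 leaves, and 719.6 and 187 after 4 days. Its day 4 ratio of 0.259 (0.228 to 0.295) was below that of DCR and CYP86A4. CDEF1 (AT4G30140), a cutinase-like enzyme known from pollen and from sites of lateral root emergence, had 4.88 normalised reads in wild-type leaves and 2.78 in lbd16-2 leaves, and 6902 and 2443 after 4 days, with a day 4 ratio of 0.354 (0.341 to 0.367). Per kilobase CDEF1 reached 4547 normalised reads in wild type at day 4, above CER1, and 1610 in lbd16-2, where CER1 was at 1632 with an overlapping interval. The authors' deposited table gave CDEF1 an FDR of 0.00284 in wild type and 0.00353 in lbd16-2.

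Relatives of the 10 genes were listed in part, and not always for the same genotype. Of 33 such genes 4 were in the wild-type list and 5 in the lbd16-2 list, 2 of them in both, beside 8.91%, 9.18% and 6.78% of genes tested, and nothing is read from these counts. CYP77B1 (AT1G11600), a relative of CYP77A6, had 2 reads in wild-type leaves and 1 read in lbd16-2 leaves, and 706 and 389 normalised reads after 4 days. WSD7 (AT5G12420), a relative of WSD1, had 17.4 and 26.0 normalised reads in wild-type and lbd16-2 leaves, and 451 and 337 after 4 days. The relatives CER1L1 and CER1L2 of CER1 were in neither list. CYP96A11 and CYP96A13, relatives of MAH1, were listed for wild type and not for lbd16-2, with 12.0 and 16.3 normalised reads for wild type, and 7.73 and 2.97 for lbd16-2, after 4 days. These levels rest on 17 and 23 reads in wild type and on 13 and 5 in lbd16-2. The day 4 ratio of CYP96A13 was 0.183 (0.054 to 0.491), while that of CYP96A11 had an interval that included 1 (0.287 to 1.40). GPAT1, WSD4 and WSD10 were listed for lbd16-2 and not for wild type. They had 121, 12.5 and 59.4 normalised reads after 4 days in lbd16-2, from 203, 21 and 100 reads. Their wild-type values were not analysed here. Against the day 0 floor WSD4 was at least 4.49-fold higher at day 4 in lbd16-2. In wild type CYP96A11 was at least 5.75-fold and CYP96A13 at least 7.78-fold higher. These bounds are under 8-fold, and as for MAH1 the listings hold on the deposited log2 scale, which adds 1.

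Of 7 markers of the shoot epidermis, PDF1 (AT2G42840), a gene of the outermost cell layer, was listed, in wild type alone, beside 2.14% of genes tested, and nothing is read from this count. It had 294 normalised reads in wild-type leaves and 715 in lbd16-2 leaves, and 3343 and 1027 after 4 days. Like CER1 it was higher in lbd16-2 at day 0, with a ratio of 2.43 (2.15 to 2.74), but after 4 days it was at 0.307 times the wild-type level (0.291 to 0.325), where CER1 was at 1.01 times. Relative to the day 0 offset of shared genes PDF1 was 0.81 above wild type on the log2 scale, beside 1.89 for CER1. Listing in wild type alone favours a higher lbd16-2 level at day 0. ATML1, PDF2, ACR4, ALE1, HDG2 and HDG11 were in neither list, and the part of epidermal cells in the CER1 levels was not tested.

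The wild-type list held 9 of 11 suberin genes and the lbd16-2 list 7, beside 8.91% and 9.18% of genes tested, from a list chosen with earlier results known. After 4 days lbd16-2 stood below wild type for all 9, as for 58.3% of the 2175 genes, with a median log2 difference of -0.33 beside -0.17 over those genes. All 9 are in the wild-type list, membership of which favours lower lbd16-2 values at day 4. Nothing is read from their shared direction or from this median. FAR1, a fatty acyl reductase like CER4, was in the wild-type list alone, at 251 normalised reads in wild-type leaves and 462 in lbd16-2 leaves and at 2478 and 1017 after 4 days. The reductase gene FAR4 was in both lists, at 1071 and 960.1 after 4 days, a ratio of 0.897 (0.836 to 0.963). ASFT was, like FAR1, in the wild-type list alone. Its lbd16-2 level was 2.17 times the wild-type level at day 0 (1.61 to 2.94) and 0.904 times at day 4 (0.838 to 0.975). By these ratios ASFT shared the CER1 pattern. Relative to the day 0 offset of shared genes, however, it was 0.64 above wild type on the log2 scale, under 2-fold, beside 1.89 for CER1. Listing in wild type alone favours a higher lbd16-2 level at day 0. FAR5, in both lists, had a day 0 ratio of 0.725 (0.220 to 2.14). Of the 9 suberin genes 4 were higher in lbd16-2 at day 0, with a median log2 difference of 0.

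**Figure D4:**
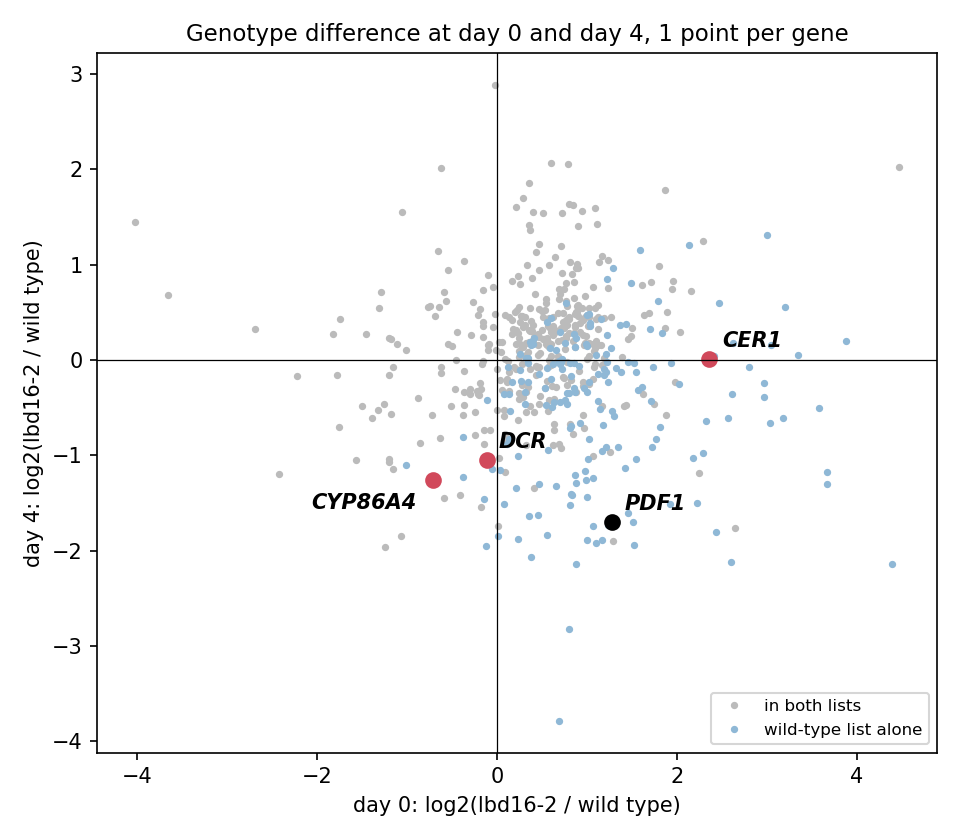
Log2 ratio of lbd16-2 to wild type at day 0 (horizontal) and day 4 (vertical) for 558 listed genes with a day 0 mean of at least 20 normalised reads (grey in both lists, blue in the wild-type list alone). CER1 (red) lies at 2.36 to the right with almost no day 4 difference, and PDF1 (black) lies to the right and low. DCR and CYP86A4 (red) lie low at -1.05 and -1.26, CYP86A4 also to the left at -0.71.

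The genes with the most similar pattern were different for each member. Likeness was the distance between log2 levels over the 4 libraries after each gene's mean was subtracted, among genes whose mean was 50 normalised reads or more. The 5 nearest to CER1 were AT1G62420 (distance 0.37), USPL1, AT2G37070, Tic20-IV and TSPO (0.58). Nearest to CER4 were PYD4 (0.12), AT5G19110, GSTU22, GLYI7 and ASE1 (0.56), and nearest to MAH1 were ERF1 (0.19), AT1G77330, AT2G02680, AT5G43240 and EXPA14 (0.34). For DCR they were AT5G08360 (0.077), AT5G36920, SPT, HSFB4 and AT1G14390 (0.29), and for CYP86A4 they were RGF5 (0.31), AT5G49680, JKD, AT5G40100 and HHP2 (0.41). Among the members the cutin genes CYP86A4 and DCR were the closest pair, at 0.72, and the other pairs lay between 1.61 and 4.40, the largest for CER4 and DCR. The distances and nearest genes of CER4 and MAH1 depend on the 1 added to each normalised value. At day 0 CER4 had 0 and 3 reads and MAH1 had 0 in both genotypes. With pseudocounts of 0.1 and 5 the CER4 log2 fold in wild type was 11.07 and 5.46, from 7.75.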

How the data were processed

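Tools named in the submitters' processing notes are STAR, Cufflinks, DESeq, FastQC and Trim Galore, with the TAIR10 genome. Their versions, the use of strand and the treatment of reads matching several genes are not stated there. The authors deposited a level per library on a log2 scale, whose values are those of log2(normalised reads + 1). This was inferred: with 1 size factor per library, 100% of values gave whole reads within 0.001. The deposited log2 folds are differences of these levels, and the deposited p-value, FDR and ratio of folds between genotypes were used as given. Numbers of genes tested were recovered as those that make most FDR-to-p ratios whole ranks (53.4% and 54.3% of genes). Total depth is unknown, since only listed genes are in the tables, with 92884 to 3595214 reads per library.

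With 1 library per group, no test was run. Ratios have exact binomial intervals, fold differences normal ones with 0.5 added to reads, and levels per kilobase Poisson ones, from scipy 1.17.1. Size factors, day 4 ratio intervals and fold-difference intervals were tested on simulated reads, and the other steps were not. Intervals and floors cover counting error only, and intervals relative to an offset take that offset as exact. Transcript length is that of the RefSeq TAIR10.1 transcript with the longest coding sequence, and shared runs were sought with BLAST 2.17.0. Genes were named by rule: the 10 members, each listed gene of the wax, cutin, regulator and family lists, up to 4 epidermis or suberin genes with the highest day 4 level in wild type, and the 5 genes most like each member. Unlisted genes were named as examples. All 109 genes of the 7 lists matched RefSeq. Members and lists were chosen with earlier results of these data known. Alternatives were pseudocounts, centring, a 16-fold limit, a minimum level at day 4 and the authors' FDR.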

Additional observations from a re-analysis of the deposited data

How the results depend on the processing

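No alternative stands in for a replicate. No paired analysis was possible because each group holds 1 library. Pseudocounts of 0.1 and 5 moved 0 of the single-gene values beyond their counting intervals. Those intervals are wide for CER4, whose fold difference was 4.55 and 0.35 with these pseudocounts, from 1.62. A pseudocount of 5 put the lbd16-2 log2 folds of CYP86A4 (2.91) and MAH1 (2.15) under the limit of 3. With a pseudocount of 5 the median log2 fold of the 5 genes was 3.58 in wild type, from 3.88, and 2.33 in lbd16-2, from 3.19. Centring each library on the median of the genes in both lists subtracts the increase for which those genes were listed. By that construction the median became -2.21 in wild type and -2.95 in lbd16-2, with CER1 at -2.21 and -4.60, CYP86A4 at -2.34 and -2.95, MAH1 at -0.30 and -1.95, DCR at -2.73 and -3.71, and CER4 at 1.65 and -0.013. The day 0 centres were 3 reads in wild type and 2 reads in lbd16-2, at the floor, so day 0 values under centring show little. Centring left the genotype differences within their intervals except that of CER1 at day 4, which became 0.083 from 0.0098 on the log2 scale. Relative to the offset of shared genes, an alternative added after the values were seen, CER1 at day 0 was at 1.89, from 2.35. Centring on all shared genes instead gave DCR 0.0026 at day 0, where the offset gave -0.58. A 16-fold limit left 2 of the 10 genes in wild type, from 5, 2 in lbd16-2 and 2 in both. CER1, DCR and CYP86A4 were then in neither list. The same limit left 1 of the 48 pathway genes in lbd16-2, from 3. The authors' FDR under 0.05 left 0, 0 and 0 of the 10 genes in wild type, in lbd16-2 and in both, and 1 and 1 of the 48, CDEF1 in each. With at least 50 normalised reads at day 4, 2 of the 10 genes were in the lbd16-2 list, MAH1 being under that level.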
